A study of Mus musculus with 21 samples.

Results

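The genes described here are those of iron handling and its hormone hepcidin in mouse liver: the hepcidin genes Hamp and Hamp2, Bmp6, Hjv and Tfr2 of the hepcidin control pathway, Tfrc and Trf of iron uptake, Fth1 and Ftl1 of iron storage, and the iron exporter gene Slc40a1. They were chosen by name, as the non-control spots of the array that carry one of these 10 gene names. Hjv is listed in the files under its older name Hfe2, and Tfr2 was matched through its RefSeq accession because the files call it Trfr2. The 10 genes had 14 probes of 55681 on the array, and all 10 were among the 19718 genes tested.

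The mice were adult males of the C57BL/6J inbred strain, and all of them first ate a normal-fat diet for 3 weeks. For the next 12 weeks they ate a high-fat diet alone (HF, 11 arrays) or the same diet with quercetin at 0.33% of its weight (HF-Q, 10 arrays), with a fast of 2 to 4 hours at the end. Quercetin is a plant flavonoid that can bind iron. No group that stayed on the normal-fat diet was analysed here, and the ages in weeks are not given in the sources used here. The study had 24 mice, and the authors left out 3 arrays for uneven hybridisation. Each array held 1 liver in Cy5 against an equimolar pool of all samples in Cy3, so a log2 ratio of 0 means the level of the pool. Dyes were not swapped, so an offset from the pool that all livers share cannot be told apart from a dye effect.

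Hepcidin is a peptide hormone made mainly by hepatocytes. It binds ferroportin, the exporter encoded by Slc40a1, and causes its removal from the membranes of macrophages, enterocytes and hepatocytes, which lowers the release of iron into plasma. Its transcription rises with iron through bone morphogenetic proteins such as BMP6, their co-receptor hemojuvelin (Hjv) and transferrin receptor 2 (Tfr2), and with inflammation through interleukin-6 and STAT3. Iron regulatory proteins stabilise the Tfrc transcript and block ferritin translation when cells lack iron, so ferritin transcripts say little of ferritin protein.

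Hamp and Hamp2 are neighbouring copies of one ancestral gene, and the results for these genes turn partly on how far the array can tell them apart. Their probes lie on the minus strand of chromosome 7 of mouse build mm9, at 31727490 to 31727549 for Hamp and 31707520 to 31707579 for Hamp2. The aligned coding ends of both probes are shown, 5′ to 3′ up to the stop codon, with the bases at which they differ in capitals.
Hamp: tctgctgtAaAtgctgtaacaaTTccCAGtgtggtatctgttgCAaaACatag
Hamp2: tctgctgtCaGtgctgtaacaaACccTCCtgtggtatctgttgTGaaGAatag
Over these 53 bases there were 11 mismatches (79.2% identity), and the longest stretch of identical bases was 14. Over the 59 bases that the whole probes share there were 17 mismatches. Cross-hybridisation was not measured directly.

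The promoters of both genes are shown for the same reason, since the BMP and STAT signals act on hepcidin through them. The sequences are the 140 bases before the start of transcription, read from RefSeq on build GRCm38.p6, minus strand, at chr7:30944030-30944169 for Hamp and chr7:30924182-30924321 for Hamp2. Capitals mark GGCGCC, the core of the BMP-responsive element described in hepcidin promoters, and TTCTTGGAA, the STAT-type site beside it. Both strands were searched, and these motifs do not overlap.
Hamp: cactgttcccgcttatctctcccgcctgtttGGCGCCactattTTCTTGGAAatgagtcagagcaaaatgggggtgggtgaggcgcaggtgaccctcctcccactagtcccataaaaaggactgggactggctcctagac
Hamp2: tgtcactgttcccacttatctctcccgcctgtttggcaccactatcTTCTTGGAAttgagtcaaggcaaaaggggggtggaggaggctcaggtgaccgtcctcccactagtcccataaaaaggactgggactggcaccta
The 250 bases before the start were 89.7% identical between the genes. GGCGCC lay 109 to 104 bases before the Hamp start and was not in the Hamp2 window, and TTCTTGGAA lay at 97 to 89 bases in Hamp and 94 to 86 in Hamp2. Of 32851 RefSeq promoter windows of 250 bases, 9.59% held GGCGCC and 0.37% held TTCTTGGAA on either strand. Of the 10 genes, 7 matched the promoter table, with 11 start sites, and Hjv, Trf and Slc40a1 did not. GGCGCC was also found at 1 of the Tfrc start sites and at none of the others, and TTCTTGGAA was found in Hamp and Hamp2 alone among them. A match is a description of letters and not evidence of a bound factor.

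Both diets were on each of the 3 slides of the experiment, with 3 HF and 4 HF-Q arrays on slide 1, 4 and 2 on slide 2, and 4 and 4 on slide 3. In the liver channel 44.2% to 51.3% of probes were well above background. The hepatocyte markers Alb, Ttr, Apoa1, Serpina1a, Tat and Cps1 were all measured, and the median difference of the list was 0.028 on the log2 scale. Over all genes the median difference was -0.0043 and the lowest adjusted p in limma was 0.399. The number of arrays limits the precision.

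The question put to these genes was whether quercetin in a high-fat diet changes their expression. Tfrc had the lowest p of the 10 and was 1.28 times higher in HF-Q, and Hamp2 had the largest difference, 1.49 times lower in HF-Q with a wide spread. Hamp itself differed by -0.043 on the log2 scale. After Benjamini-Hochberg adjustment over all genes, 0 of the 10 had a limma p under 0.05, and 0% of all genes did (0 of 19718). At an unadjusted p under 0.05 there was 1 member, Tfrc, against 5.92% of all genes (3.02% higher and 2.9% lower in HF-Q), so the count is near what the whole array gave. By sign, 4 members were higher in HF-Q and 6 lower, against 47% and 53% of all genes, and with median centring in place of loess the signs of Hamp, Tfr2, Fth1 and Ftl1 turned. No member had groups that did not overlap (0.00507% of all genes did). The median difference over the members was -0.045. Because the tissue is bulk liver, fewer cells of a type and less RNA per cell cannot be told apart.

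**Figure D1:**
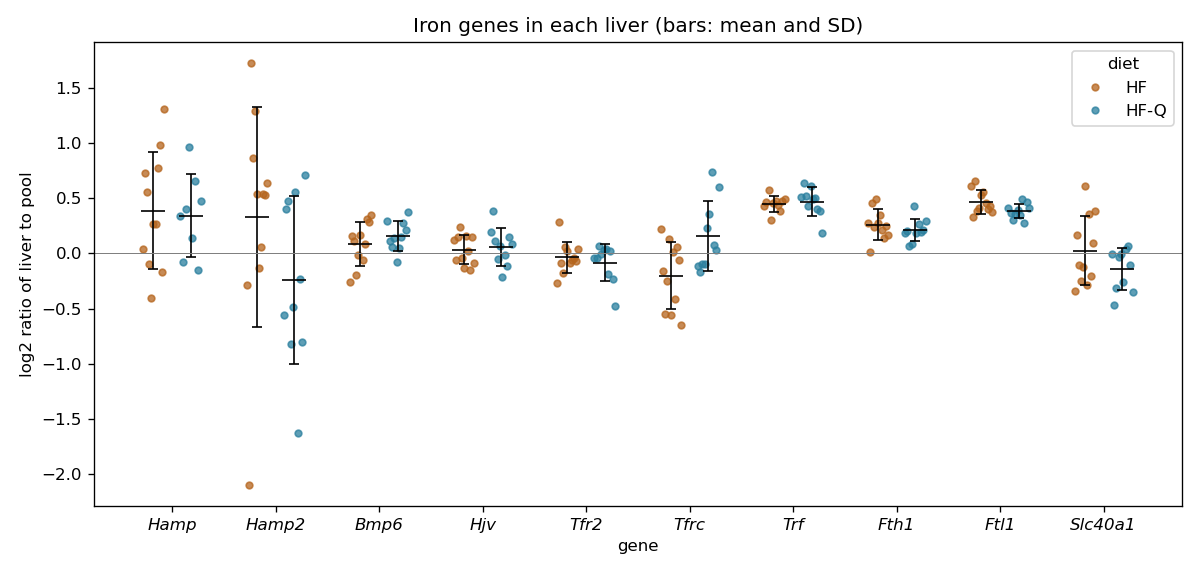
Log2 ratio of each liver to the pool (vertical axis) for the 10 genes (horizontal axis), 1 point per liver, HF in brown and HF-Q in blue, with the mean and SD of each group in black. Hamp2 spreads from -2.10 to 1.72, the diets overlap for all 10 genes, and Trf and Ftl1 spread least.

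The genes differed greatly in how much their ratios varied between livers. Every liver had its own array, so differences between mice and error between arrays are not told apart here. The SDs also pool both diets. Hamp2 had an SD over all livers of 0.92, above that of 99.9% of the tested genes, and its highest and lowest livers were 14.1 times apart. Hamp, at an SD of 0.46, was above 98.8% of genes, Tfrc, at 0.35, above 97.4%, and Slc40a1, at 0.27, above 94.5%. Ftl1, at 0.098, and Trf, at 0.10, were above 21.7% and 26.7% of genes.

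Hamp, which encodes the iron-regulatory hepcidin, ranged in HF from -0.40 in replicate 5 to 1.31 in replicate 11, with a median of 0.27. In HF-Q it ranged from -0.15 in replicate 7 to 0.97 in replicate 4, with a median of 0.37 over 8 livers, since the spots of replicates 9 and 10 were marked by the scanner software and left out. The HF-Q livers lay inside the HF range, with 2 HF livers above and 2 below all of them. The HF mean was 0.39 ± 0.53 over 11 livers and the HF-Q mean 0.34 ± 0.37 over 8 livers (SD). The difference was -0.043 ± 0.20 (SE) with a 95% interval of -0.45 to 0.37 (limma p = 0.830, adjusted 0.999). The interval holds changes in either direction, so shifts of Hamp within it cannot be told apart from no difference. With the marked spots kept, HF-Q replicates 9 and 10 read 0.62 and 0.37 and the difference was -0.013.

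Hamp2, the second mouse hepcidin gene, whose product is not known to control plasma iron, ranged in HF from -2.10 in replicate 2 to 1.72 in replicate 3, with a median of 0.54. In HF-Q it ranged from -1.63 in replicate 7 to 0.71 in replicate 10, with a median of -0.36. Of the 10 HF-Q livers 8 lay below the HF median, yet the lowest liver of all was an HF liver and 3 HF livers lay above every HF-Q liver. The means were 0.33 ± 1.00 (SD, n = 11) and -0.24 ± 0.76 (SD, n = 10), a difference of -0.57 ± 0.35 (SE; limma p = 0.118, adjusted 0.927). The difference was negative on each slide, at -0.98, -0.85 and -0.25 on slides 1, 2 and 3. In a fit that blocked on slide it was -0.66 (limma unadjusted p = 0.0451, adjusted 0.718), and without HF replicate 2 it was -0.81 (limma unadjusted p = 0.00776, adjusted 0.558). With each array left out in turn it ranged from -0.81 to -0.42, and the smallest values were -0.42 without HF-Q replicate 7 (limma unadjusted p = 0.237) and -0.43 without HF replicate 3 (limma unadjusted p = 0.220). The adjusted p stayed above 0.05 in each of these fits.

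**Figure D2:**
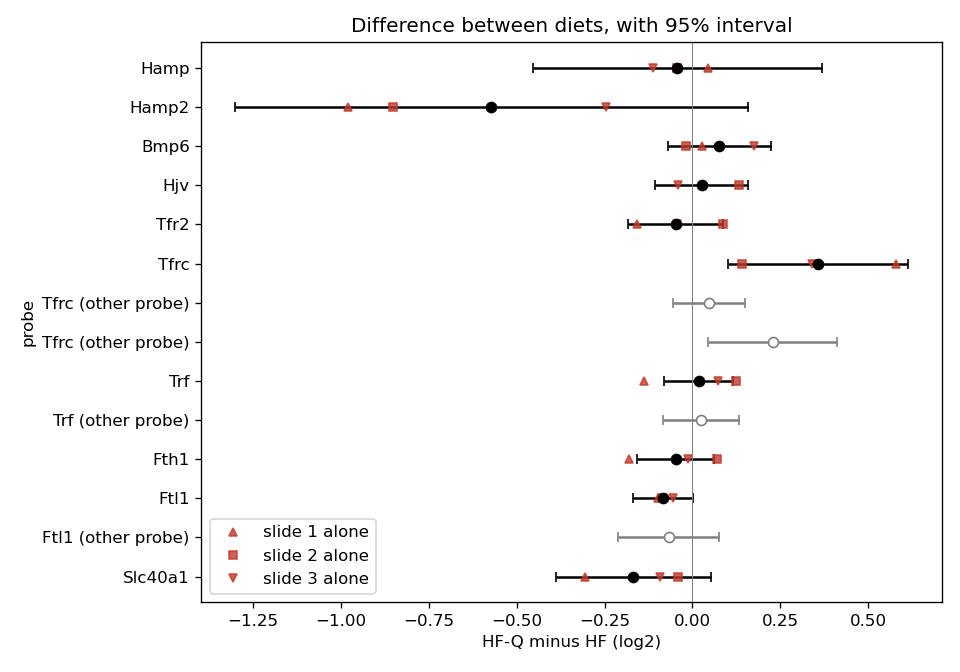
HF-Q minus HF on the log2 scale (horizontal axis) for the 14 probes (vertical axis), with the 95% interval; filled black points are the probe that stands for a gene, open grey points its other probes, and red symbols the same difference within slides 1, 2 and 3. Only 2 of the Tfrc probes have intervals that leave out 0, and the Hamp2 interval is the widest.

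Although their probes and promoters are alike, Hamp and Hamp2 did not vary together. Pearson's r of their log2 ratios was -0.083 and Spearman's rho -0.040 over the 19 livers with both values, and r was -0.22 within HF and 0.21 within HF-Q. Of the 19717 other genes, 12322 correlated more highly with Hamp2 than Hamp did. HF replicate 2 had the lowest Hamp2 value, -2.10, but a Hamp value of 0.73, and HF replicate 5 had the lowest Hamp value, -0.40, with a Hamp2 value of 1.29. In these livers a large change in one signal was not seen in the other.

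The level of Hamp2 ran instead with that of other genes. Its 5 most similar genes with a symbol were Gstt3, a glutathione transferase, at r = 0.91, Tcn2, the vitamin B12 carrier transcobalamin, at 0.85, Sulf2, a sulfatase of heparan sulfate, at 0.84, Gypc, a glycophorin, at 0.83, and Cyp2b10, a cytochrome P450 induced through the receptor CAR, at 0.82, all over 21 livers. These were chosen after their values were seen, and 95% of genes had an r with Hamp2 below 0.44. For Cyp2b10 r was 0.93 within HF and 0.67 within HF-Q, 0.82, 0.77 and 0.83 on slides 1, 2 and 3, and 0.78 without the 2 livers farthest out in Hamp2. Cyp2b10 differed by -1.34 ± 0.33 (SE) between HF-Q and HF (limma adjusted p = 0.518), with HF replicate 2 at -1.96 and HF-Q replicate 10 at 0.62 on the other group's side, the same livers that were lowest in Hamp2 among all and highest among HF-Q. The correlation of Cyp2b10 with Hamp was -0.15 over 19 livers. All livers share the pool and the normalisation, and these correlations are descriptions.

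**Figure D3:**
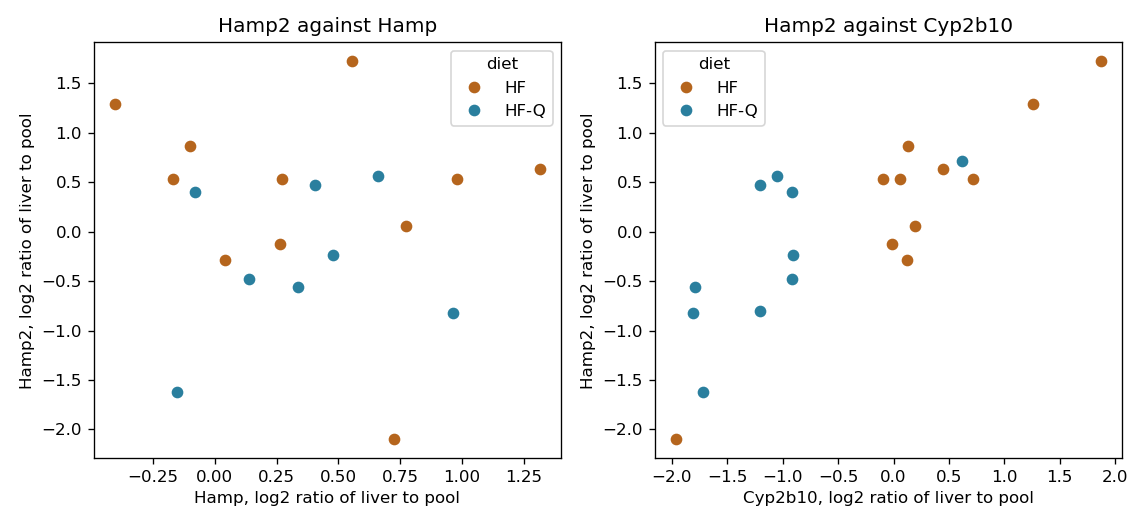
Hamp2 (vertical axes) against Hamp (left) and Cyp2b10 (right), each as the log2 ratio of a liver to the pool, with HF livers in brown and HF-Q livers in blue. The points show no trend against Hamp (r = -0.083, 19 livers) and run from lower left to upper right against Cyp2b10 (r = 0.82, 21 livers).

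The upstream genes of hepcidin control differed little between diets. Bmp6, the ligand made by sinusoidal endothelial cells, ranged from -0.26 to 0.34 in HF (median 0.11) and from -0.077 to 0.38 in HF-Q (median 0.15), with 1 HF-Q liver above and 2 HF livers below the other group. Its difference was 0.076 ± 0.071 (SE; limma p = 0.296, adjusted 0.976), with 0.028, -0.018 and 0.18 on slides 1, 2 and 3. It was 0.042 without HF replicate 1 and 0.048 without HF replicate 4. The Bmp6 probe is dim, with a Cy5 signal of 138 to 289, and its difference was 0.16 in the scanner software's processed signals. The 8 sinusoidal endothelial markers had a median difference of 0.0013, 4 higher and 4 lower, and their part in the Bmp6 value was not tested. The Bmp6 probe lies on chromosome 13 of mm9 at 38591479 to 38591538.

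Hjv, the BMP co-receptor, ranged from -0.15 to 0.24 in HF (median 0.020) and from -0.21 to 0.39 in HF-Q (median 0.077), and its difference was 0.026 ± 0.064 (SE; limma adjusted p = 0.999). Tfr2, the hepatocyte sensor of iron-loaded transferrin, ranged from -0.27 to 0.28 in HF (median -0.057) and from -0.47 to 0.066 in HF-Q (median -0.023), a difference of -0.048 ± 0.065 (SE; limma adjusted p = 0.988). For each gene all but 2 livers lay in the range of both diets. Tfr2 was lowest in HF-Q replicate 10, and Hjv was highest in HF-Q replicate 2; without these livers the Tfr2 difference was -0.0041 and the Hjv difference -0.010. Without HF replicate 2, the highest HF liver for Tfr2, the Tfr2 difference was -0.016. The Tfr2 sign turned on slide 2, to 0.086, and the Hjv sign on slide 3, to -0.040. Their probes lie on chromosome 3 at 96332113 to 96332172 (Hjv) and chromosome 5 at 138028646 to 138028705 (Tfr2) of mm9.

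Across livers Hamp correlated positively with Bmp6 (r = 0.48, 19 livers; 0.34 without the 2 livers farthest out in Hamp) and with Tfr2 (0.38, and 0.50 without them), and negatively with Hjv (-0.51, and -0.61). The r of Hamp with Bmp6 was 0.60 within HF and 0.12 within HF-Q, and 0.88, 0.41 and 0.40 on slides 1, 2 and 3. With Tfr2 it was -0.18, 0.24 and 0.63 on the slides, so it was not positive on slide 1, and with Hjv it was -0.19, -0.66 and -0.64. With Id1, a direct target of BMP signalling, Hamp had r = 0.44, but 0.0013 without HF replicates 5 and 11, so that relation rests on those livers. With the BMP-induced inhibitor genes Smad7 and Smad6 r was 0.56 and 0.29, or 0.24 and 0.20 without those livers, and with Atoh8, a transcription factor gene induced by BMP signals, it was 0.066, or -0.33. For Smad7 it was 0.97, 0.037 and 0.39 on slides 1, 2 and 3. Hamp and Fth1 had r = -0.55, with -0.58, -0.59 and -0.64 on the slides. Of all genes with a value, 5% had an r above 0.47 with Hamp and 5% one below -0.45.

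By the naming rule, the 5 genes most like Hamp over its 19 livers were Map2k6 (r = 0.87), Gucy2c (0.87), Ssbp2 (0.86), Gm10318 (0.86) and Nr5a1 (0.84). They are the highest among the genes with a symbol, picked from a comparison with all tested genes, and describe these livers only.

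Tfrc, the receptor through which cells take up transferrin-bound iron, ranged in HF from -0.64 in replicate 11 to 0.22 in replicate 1, with a median of -0.16. In HF-Q it ranged from -0.17 in replicate 2 to 0.74 in replicate 7, with a median of 0.054. Of the 10 HF-Q livers 9 lay above the HF median and 4 above every HF liver, and 5 of the 11 HF livers lay below every HF-Q liver, so the groups overlapped in the middle. The means were -0.20 ± 0.30 (SD, n = 11) in HF and 0.16 ± 0.32 (SD, n = 10) in HF-Q. The difference was 0.36 ± 0.12 (SE) with a 95% interval of 0.10 to 0.61 (limma p = 0.00846, adjusted 0.772).

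This Tfrc probe, on chromosome 16 at 32632255 to 32632314 of mm9, is printed 10 times on each array, which gives the error between spots of 1 array. Extraction, labelling and hybridisation are shared by those spots, and their error was not measured. Its spots had an SD within an array of 0.047 to 0.17 (median 0.10), against an SD between livers of 0.30 in HF and 0.32 in HF-Q. The spread between arrays was thus larger than that between spots. The other Tfrc probe, at 32620470 to 32620529, correlated with it at r = 0.85 over 21 livers and gave 0.23 ± 0.089 (SE; limma p = 0.0171, adjusted 0.858), with all 10 HF-Q livers above its HF median and 7 HF livers below every HF-Q liver. The last Tfrc probe was well above background on 0 arrays, and its difference was 0.047.

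Tfrc is a dim gene on this array, with a Cy5 signal of 89.5 to 354, and the size of its difference moved with the processing. It was 0.36 with a normexp offset of 50, 0.46 with an offset of 10 and 0.67 when the scanner software's own processed signals were used. It was 0.41 with median centring, 0.41 from Cy5 alone and 0.48 in the authors' deposited log2 values, whose normalization is unknown. It was positive on each slide, at 0.58, 0.14 and 0.34 on slides 1, 2 and 3, and a fit with slide as a block gave 0.37 (limma unadjusted p = 0.0106, adjusted 0.627). With any 1 array left out it lay between 0.29 and 0.40.

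**Figure D4:**
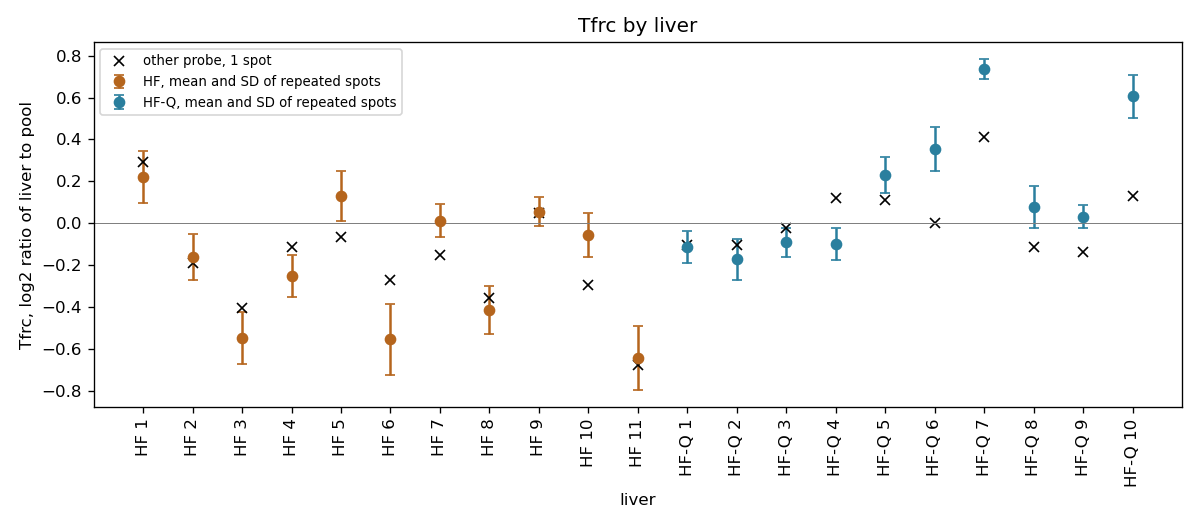
Tfrc log2 ratio to the pool (vertical axis) in each of the 21 livers (horizontal axis): circles are the mean of the repeated spots of 1 probe with their SD as bars, HF in brown and HF-Q in blue, and crosses are another probe with 1 spot per array. Spot SDs of 0.047 to 0.17 are small against the range of -0.64 to 0.74 between livers.

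Tfrc is also abundant in erythroid precursors, so erythroid markers are given beside it. Of 8 listed, 7 were on the array under these names and 5 were tested. All 5 were lower in HF-Q, beside 53% of all genes. Hba-a1 and Hba-a2, the alpha-globin genes, differed by -0.24 ± 0.12 and -0.31 ± 0.12 (SE; limma unadjusted p = 0.0486 and 0.0191, adjusted 0.844 and 0.810). Of all genes, 5.92% had an unadjusted p under 0.05. Hbb-b2 differed by -0.21 ± 0.12, Alas2 by -0.053 ± 0.044 and Slc4a1 by -0.034 ± 0.039 (SE). The mean over the list ranged from -0.20 to 0.33 in HF and from -0.33 to 0.11 in HF-Q livers. Markers that did not pass the filter on dim probes included Epb42. The part of blood or erythroid cells in the Tfrc result was not tested.

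The 5 genes most like Tfrc over 21 livers were Smarcb1 (r = 0.85), a subunit of a chromatin remodelling complex, Sarnp (0.79), Nenf (0.79), Med29 (0.78), a subunit of the Mediator complex, and Gpn2 (0.78). Among members, Tfrc ran opposite to Slc40a1 (r = -0.49, 21 livers), with r = -0.72 within HF and 0.11 within HF-Q. On slides 1, 2 and 3 that r was -0.76, -0.89 and -0.013, so it did not hold on slide 3.

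Trf, which encodes the plasma iron carrier transferrin, had a small spread in both diets. It ranged from 0.30 to 0.57 in HF (median 0.46, 10 livers) and from 0.18 to 0.64 in HF-Q (median 0.50). Every ratio measured was positive, and such a shared offset cannot be told apart from a dye effect. The difference was 0.017 ± 0.048 (SE; limma adjusted p = 0.999), and the other Trf probe gave 0.024 ± 0.052. Its sign varied by slide, at -0.14, 0.12 and 0.071, and was negative from Cy5 alone (-0.024). Of all members Trf correlated most with Tfr2 (r = 0.57, 20 livers), or 0.38 without the 2 livers farthest out in Tfr2. The Trf probes lie on chromosome 9 of mm9, at 103111207 to 103111266 and 103112826 to 103112885.

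Both ferritin transcripts had small negative differences. Ftl1, the light chain, ranged from 0.33 to 0.66 in HF (median 0.43) and from 0.27 to 0.49 in HF-Q (median 0.38), with 4 HF livers above every HF-Q liver and 2 HF-Q livers below every HF liver. The difference was -0.083 ± 0.041 (SE) with a 95% interval of -0.17 to 0.0027 (limma p = 0.0569, adjusted 0.864), and -0.098, -0.088 and -0.056 on slides 1, 2 and 3. It was -0.031 in the authors' deposited log2 values and 0.0069 with median centring, where its sign turned.

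The other Ftl1 probe gave -0.068 ± 0.069 (SE, n = 9 and 9) and correlated with the first at r = 0.74. The mouse genome holds near-identical copies of the ferritin genes, and whether they add to these signals was not tested. Fth1, the heavy chain with ferroxidase activity, ranged from 0.014 to 0.49 in HF (median 0.25) and from 0.068 to 0.43 in HF-Q (median 0.20), a difference of -0.048 ± 0.053 (SE; limma adjusted p = 0.976) that turned to 0.070 on slide 2, to 0.036 with median centring and to 0.0083 from Cy5 alone. No HF-Q liver lay above or below the HF range of Fth1. The ferritin pair had the highest correlation of the 45 member pairs, r = 0.58 over 21 livers, and 0.56 without the 2 livers farthest out in Fth1. On slide 2 it was 0.090. On mm9 the Fth1 probe lies on chromosome 19 at 10059485 to 10059544 and the Ftl1 probe that stands for the gene on chromosome 7 at 52713309 to 52713368.

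Slc40a1, the gene of the iron exporter ferroportin, ranged from -0.34 in HF replicate 1 to 0.61 in HF replicate 6 (median -0.10), and from -0.46 to 0.069 in HF-Q (median -0.066). The medians were close, but 5 of 11 HF livers lay above every HF-Q liver and 2 HF-Q livers below every HF liver. The difference was -0.17 ± 0.11 (SE; limma p = 0.127, adjusted 0.929), with -0.31, -0.041 and -0.093 on slides 1, 2 and 3, and -0.11 without HF replicate 6. Kupffer cells express much Slc40a1. The mean of 8 Kupffer cell and macrophage markers ranged from -0.54 to 0.64 in HF and from -0.59 to -0.033 in HF-Q livers, with 3 markers higher and 5 lower and a median difference of -0.012. Marco weighs most in that mean, with an SD of 1.22 in HF and a difference of -0.69 ± 0.40 (SE). The next highest SD in HF was 0.43, for Adgre1. The part of these cells in the Slc40a1 values was not tested. The Slc40a1 probe lies on chromosome 1 of mm9 at 45965255 to 45965314.

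The wider iron genes give the setting. Of 89 genes in 6 lists 83 were tested, 33 of them higher and 50 lower in HF-Q, with a median difference of -0.016 against -0.0043 over all genes, and the median turned to 0.027 with median centring. At an unadjusted p under 0.05 there were 5 (6.02%), beside 5.92% of all genes, and 0 passed the adjusted threshold in limma.

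In the list of hepcidin control, 28 of 30 genes were tested, 11 higher and 17 lower. At an unadjusted p under 0.05 there was 1 (3.57%), beside 5.92% of all genes. This was Acvrl1, the endothelial BMP receptor ALK1, at 0.10 ± 0.043 (SE; limma p = 0.0274). Creb3l3, a liver transcription factor that can activate hepcidin, differed by -0.073 ± 0.041. Gdf15, a stress-induced cytokine, differed by -0.50 ± 0.29 but with values of 0.022, -0.49 and -0.98 on slides 1, 2 and 3. The acute phase markers, which rise with the inflammatory signal that also drives Hamp, had a median difference of -0.15 over 9 genes, 4 higher and 5 lower. Orm1 and Orm2, which encode acid glycoproteins, were the 2 of them with an unadjusted p under 0.05, beside 5.92% of all genes. They differed by -0.17 and -0.20 (limma adjusted p = 0.830 and 0.772), but by only -0.050 and -0.059 on slide 1. Their part in the hepcidin values was not tested.

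Of the genes for iron uptake and release inside cells, 11 were tested, 5 higher and 6 lower. Of these, 0 had an unadjusted p under 0.05, beside 5.92% of all genes. Lrp2, the endocytic receptor megalin, differed by 0.17 ± 0.11 and Lcn2, a carrier of siderophores, by -0.15 ± 0.11 (SE). Lcn2 is also listed among the acute phase markers. Slc39a14, the importer of non-transferrin iron, differed by -0.10 ± 0.076 (SE). Of 9 tested genes of storage and its sensors, 3 were higher and 6 lower. Again 0 had an unadjusted p under 0.05, beside 5.92% of all genes. Ncoa4, the receptor for ferritin breakdown, differed by -0.079 ± 0.044, Pcbp3, of the family of iron chaperones, by 0.12 ± 0.085, and Hif1a, a hypoxia-inducible factor, by -0.067 ± 0.062. Beside Slc40a1, the ferroxidase genes Heph and Cp differed by 0.057 ± 0.061 and -0.074 ± 0.081 and the haem exporter gene Flvcr1 by 0.032 ± 0.051.

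The haem and haemoglobin salvage genes had 3 higher and 7 lower of 10 tested, with a median of -0.061. Hp, which encodes haptoglobin, the carrier of free haemoglobin, had values in 9 HF and 8 HF-Q livers. It differed by -0.17 ± 0.065 (SE; limma p = 0.0158, adjusted 0.803), with 0.014 on slide 2, -0.38 on slide 3 and no estimate on slide 1 alone. Hmox1, the inducible haem oxygenase, differed by -0.14 ± 0.073 (limma p = 0.0588) and Abcg2, a haem and drug exporter, by -0.12 ± 0.069. Haptoglobin is also an acute phase protein.

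Among 21 genes of mitochondrial iron and iron-sulfur clusters, 9 were higher and 12 lower, and 3 (14.3%) had an unadjusted p under 0.05, beside 5.92% of all genes. Glrx5, a glutaredoxin that passes clusters on, differed by -0.14 ± 0.046 (SE; limma p = 0.00519, adjusted 0.757), at -0.13, -0.12 and -0.15 on slides 1, 2 and 3. Ciao2b, of the cytosolic cluster assembly, differed by 0.097 ± 0.038 (limma p = 0.0174). The differences of Glrx5 and Ciao2b had opposite signs, and neither passed the adjusted threshold.

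**Figure D5:**
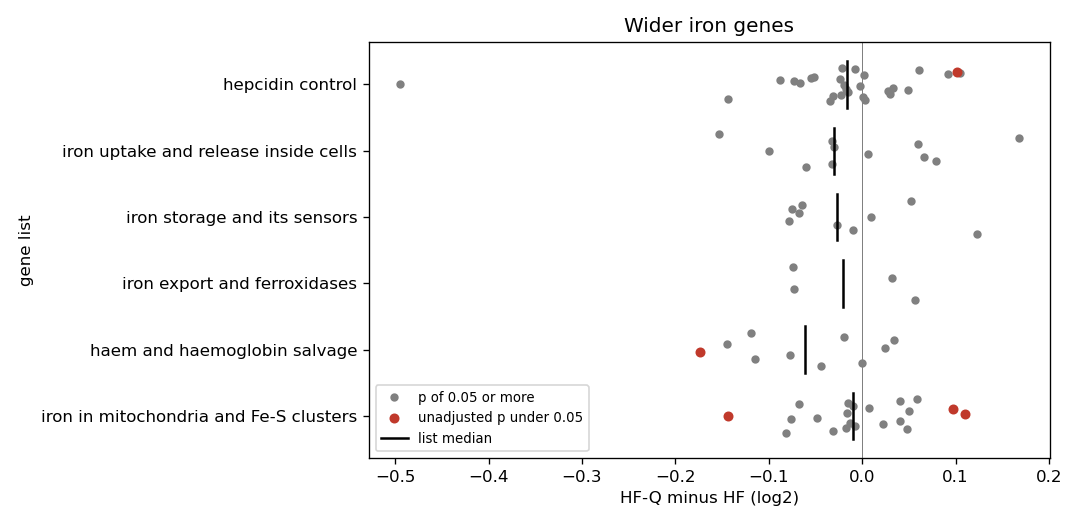
HF-Q minus HF on the log2 scale (horizontal axis) for the 83 tested genes of the 6 wider iron lists (vertical axis), 1 point per gene, red where the unadjusted p was under 0.05, with the median of each list as a black line. The list medians lie between -0.061 and -0.010, and 5 genes are red.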

How the data were processed

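Scanner files made by Agilent Feature Extraction 10.7.3.1, per the submitters' processing notes, were deposited with the spot and local background intensity of both channels, not normalized. A deposited table of the authors' log2 values was used here as an alternative. Its normalization is named in no source at hand, and its columns have equal medians. In limma 3.58.1 (R 4.3.3), normexp with an offset of 50 corrected the background, and loess within each array normalized the Cy5 to Cy3 ratio. The offset draws ratios of dim genes toward 0. Controls and spots that the scanner software marked as uneven or outlying were left out, and a probe's repeated spots were averaged. Probes were kept if well above background in Cy5 on at least 10 of 21 arrays (26291 of 55681 probes), and the brightest kept probe stood for a gene.

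Diets were compared with limma's moderated test with a variance trend, two-sided, adjusted by Benjamini-Hochberg over 19718 genes, at a threshold of 0.05. The p-values called unadjusted, or given without that word, come from the same fit. The fit was tested on simulated data. Second probes of members were fitted among all kept probes, and the dim Tfrc probe among all probes. The rule named all members with every probe, the 3 genes of lowest p in each of 6 iron lists, and the 5 genes most like Hamp and Tfrc by Pearson's r. Members and lists were chosen with earlier results of these data known. Probe coordinates are on mm9 from the array files, and exon annotation of that build was not used here. Some genes that the rule or the lists name are not reported here one by one, though they stayed in the counts.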

Additional observations from a re-analysis of the deposited data

Results flagged for a closer look

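In HF-Q replicate 7 the Tfrc probe with 1 spot per array stood at 0.41 on the log2 scale, far from the next highest HF-Q liver at 0.13. The gap was 0.511 of the group's range, above Dixon's 95% critical value for 10 samples. Chance gives such a liver in about 1 in 20 groups, and 17 groups were searched, of which this was the 1 found. The repeated Tfrc probe was also highest in this liver, at 0.74, next to 0.61 in HF-Q replicate 10. Without HF-Q replicate 7 the Tfrc difference was 0.29. Groups of more than 10 livers were not searched in this way, so HF was searched only for the 3 probes with values in 9 or 10 HF livers.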

How the results depend on the processing

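Tfrc, Hamp2 and Slc40a1 kept their direction in every alternative run, and no member passed the adjusted threshold in any. The number of genes past it was 0, but 1 on slide 1 alone and 1 on slide 2 alone, and 0 to 4 with 1 array left out (4 with HF replicate 2 out and 1 with HF-Q replicate 10 out). The median of the wider iron genes, -0.016, moved to 0.027 with median centring and to 0.020 on slide 3 alone, and lay between -0.020 and -0.0031 with 1 array left out. Signs turned with median centring for Hamp (0.026), Tfr2 (0.021), Fth1 (0.036) and Ftl1 (0.0069), from Cy5 alone for Trf (-0.024) and Fth1 (0.0083), and in the deposited log2 values for Hamp (0.011). They turned on slide 1 for Hamp (0.044) and Trf (-0.14), on slide 2 for Bmp6 (-0.018), Tfr2 (0.086) and Fth1 (0.070), and on slide 3 for Hjv (-0.040). With 1 array left out, Hamp ranged from -0.13 to 0.050, turning without HF replicate 9 (0.016) or 11 (0.050) and with HF-Q replicate 2 (0.018) or 7 (0.028) out. Hjv ranged from -0.010 to 0.056 and Trf from -0.0021 to 0.049, both turning without HF-Q replicate 2. The cause was not tested. Keeping marked spots was chosen after seeing the data.

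HF and HF-Q share replicate numbers. In deviations from their group means, same-numbered livers correlated at -0.34 to 0.16 over 10 pairs, and 0 of the HF livers matched their own number best. Some same-numbered livers also shared a slide. Low correlations cannot show whether the numbers were meant as pairs. With the replicate block 0 genes passed, Tfrc was 0.31, Hamp2 -0.54 and Hamp turned to 0.078. That fit left out HF replicate 11, whose number no HF-Q liver has, and Hamp also turned when only that liver was left out. For Hamp, HF-Q replicates 9 and 10 had no value either. A change of value under the block thus mixes the pairing with a change in the livers used.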
